A study of Mus musculus with 12 samples.

Results

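The miRNAs described here are 6 mature miRNAs that are known from nervous and neuroendocrine tissue, miR-124-3p (MIMAT0000134), miR-9-5p (MIMAT0000142), miR-9-3p (MIMAT0000143), miR-128-3p (MIMAT0000140), miR-132-3p (MIMAT0000144) and miR-375-3p (MIMAT0000739). They were listed by miRBase accession, with no threshold on a measured value, and make up 6 of the 874 rows counted in the mouse tables, and the human-table row of miR-128-3p (MIMAT0000424) was added to them, which gives 7 of 1340 rows over both tables. Small RNA was sequenced from serum of 3 female athymic NCr nude mice (1046, 1047 and 1069), which were 4 to 6 weeks old at the start. Each mouse was bled before, and again 2 weeks after, cells of the human neuroblastoma line SH-SY5Y were placed under its renal capsule. RNA from 50 μl serum was used for each of the 6 sera, depleted of 5′ tRNA fragments with biotinylated probes or undepleted. These are called the depleted and undepleted aliquots of a serum, and both were made into TruSeq libraries with 15 PCR cycles. The study calls them the same RNA samples but does not say how the RNA of these sera was divided. The 12 libraries thus form 4 groups of 3 (before depleted, before undepleted, after depleted and after undepleted). Every animal lacks a thymus and its mature T cells, and every animal received cells of the same line. No later serum from mice without a tumour was included, so the tumour and the time that passed cannot be told apart.

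miRNAs are short RNAs that guide Argonaute proteins to messenger RNAs, mainly by pairing through the seed near their 5′ end, and thereby lower the output of the target. miR-124-3p is the characteristic miRNA of differentiated neurons, and both strands of the miR-9 hairpin are enriched in brain and neural progenitors. miR-128-3p is enriched in brain but is also made in other tissues, miR-132-3p is induced by neuronal activity, and miR-375-3p is typical of pancreatic islets, neuroendocrine cells and some epithelia. SH-SY5Y is a human cell line that came from a neuroblastoma, a tumour of the sympathetic nervous system. The mature sequences are shared by mouse and human, so host and tumour copies of these miRNAs cannot be told apart by sequence.

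A mature entry was found in RefSeq (GRCm38.p6) for 4 of the 6 mouse miRNAs. They are printed 5′ to 3′ with the seed (bases 2 to 8) in capitals, to show that miR-128-3p, miR-132-3p and the 2 miR-9 strands carry unrelated seeds, and miR-212-3p is added because it has the seed of miR-132-3p:
miR-128-3p: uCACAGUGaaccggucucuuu
miR-132-3p: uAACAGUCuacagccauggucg
miR-212-3p: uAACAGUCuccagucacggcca
miR-9-5p: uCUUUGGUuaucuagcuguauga
miR-9-3p: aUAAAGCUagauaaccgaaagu

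In the GRCm38 annotation, miR-128-3p has 2 sources. Mir128-1 lies at chr1:128202361-128202430 (plus strand, within an intron of R3hdm1), and Mir128-2 at chr9:112118636-112118711 (minus strand, within an intron of Arpp21). Mir132 (chr11:75173682-75173747) and Mir212 (chr11:75173388-75173478) are plus-strand neighbours inside an intron of the non-coding transcript 1700016P03Rik. The miR-9 strands come from 3 hairpins on the plus strand of their chromosomes. These are Mir9-1 (chr3:88215598-88215686, an intron of Gm3764), Mir9-2 (chr13:83738814-83738885, an exon of C130071C03Rik) and Mir9-3 (chr7:79505264-79505353, an intron of Mir9-3hg). Identical mature copies of 1 miRNA are counted as 1 row, so the counts do not say which hairpin was used.

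Reads were counted for each mature miRNA, and levels are given as CPM, counts scaled to a total of 1000000 in the table of that library. Mouse tables held 938706 to 2271549 counts in depleted and 21235 to 97183 in undepleted libraries, with the smallest total in the undepleted serum of mouse 1069 before injection. A miRNA that is not listed was taken as 0. A count of 0 allows up to 3 counts, that is 1.32 to 3.20 CPM in depleted libraries but 30.9 to 141 CPM in undepleted ones, and this limit covers counting error only. The nominal red blood cell marker miR-16-5p moved with the time point. It made up 12.0% ± 0.99 (SD, n = 3) of the mouse counts of depleted libraries before injection and 6.69% ± 1.04 after it, and 16.6% ± 1.84 against 8.96% ± 1.65 in undepleted ones. Its part in the values of the neural miRNAs was not tested.

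First, the levels of the 6 miRNAs were compared with each other. miR-128-3p and miR-375-3p were abundant, and the 4 others were low. By mean CPM over the 6 depleted libraries, miR-128-3p was the 26th and miR-375-3p the 40th of the 874 mouse miRNAs, and both were counted in 12 of 12 libraries. miR-132-3p ranked 182nd (10 of 12 libraries with a count), miR-9-5p 256th (8 of 12), miR-124-3p 317th (6 of 12) and miR-9-3p 362nd (6 of 12). Before injection, the depleted levels of miR-375-3p (3375 ± 3843 CPM, SD, n = 3) and miR-128-3p (3354 ± 303 CPM) overlapped. After injection, miR-128-3p (9164 ± 1627 CPM) lay above miR-375-3p (2831 ± 831 CPM), which lay above miR-132-3p (58.6 ± 14.3 CPM), which lay above miR-9-5p (15.4 ± 9.32 CPM), without overlap between neighbours. The ranges of miR-9-5p, miR-124-3p (10.3 ± 5.91 CPM) and miR-9-3p (4.40 ± 3.29 CPM) overlapped in the same libraries. CPM does not correct for differences in ligation or amplification between miRNAs, so this order is that of counts and not of molecules.

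Next, serum after injection was compared with serum before it, which asks whether these miRNAs change in mice that carry the neuroblastoma cells. miR-128-3p rose in depleted and in undepleted libraries, with a higher level at the later bleed in each of the 3 mice and the largest ratio in mouse 1069. The other 5 miRNAs were not called in either kind of library. In depleted libraries 1 of the 6 was called, with a DESeq2 adjusted p under 0.05 and 2-fold or more, and 10.6% of the 310 mouse miRNAs tested were called in either direction (4.84% as higher). In undepleted libraries 1 of the 6 was called as well, against 11.1% of 108 tested (8.33% as higher). Of the 6, 4 had an adjusted p in depleted and 2 in undepleted libraries, and the rest had counts below the independent filter. Over the 6, the median log2 fold change was 0.15 in depleted libraries, against 0.01 over the 861 mouse miRNAs fitted, and 0.02 in undepleted ones, against -0.01 over 442. The shares of 310 and 108 count only miRNAs with an adjusted p, unlike the 1 of 6. Of all mouse miRNAs fitted, 33 of 861 were called in depleted and 12 of 442 in undepleted libraries. With a single call, the result concerns miR-128-3p and not the group.

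miR-128-3p, which acts on neuronal excitability in the brain, was counted 4707, 6491 and 2822 times before injection in the depleted libraries of mice 1046, 1047 and 1069. After injection the same mice gave 14890, 14098 and 25070 counts. As levels these are 3491, 3565 and 3006 CPM before and 8359, 8096 and 11037 CPM after. The 3 later libraries lay above all 3 earlier ones, and mouse 1069 had both the lowest earlier and the highest later level. The ratio of the mean CPM was 2.73, and the ratios were 2.39, 2.27 and 3.67 in mice 1046, 1047 and 1069. Of the 861 mouse miRNAs with a count in these libraries, 14.4% were higher after injection without overlap. After scaling by the median of ratios, the normalised counts were 5980 ± 1351 before and 13376 ± 2720 after (SD, n = 3), a ratio of 2.24. They went from 6296 to 11950 in mouse 1046, from 7146 to 11665.5 in mouse 1047 and from 4499 to 16512 in mouse 1069. On this scale the rise was under 2-fold in mice 1046 and 1047. DESeq2, which shrinks fold changes towards 0, gave a log2 fold change of 1.08 (SE 0.27, adjusted p = 0.00106), the 13th smallest p of the table. Without shrinkage the log2 fold change was 1.16.

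The undepleted libraries gave much smaller counts but the same picture for miR-128-3p. It was counted 333, 308 and 47 times before and 477, 403 and 443 times after injection. These correspond to 3427, 3422 and 2213 CPM before and 7000, 7757 and 8960 CPM after. The groups again did not overlap, which held for 10.2% of 442 mouse miRNAs, and the mean CPM ratio was 2.62. Per mouse the ratios were 2.04, 2.27 and 4.05. Median-of-ratios counts went from 208 to 376 in mouse 1046, from 221 to 418 in mouse 1047 and from 108 to 482 in mouse 1069. On that scale mice 1046 and 1047 again rose by less than 2-fold. The DESeq2 log2 fold change was 1.13 (SE 0.27, adjusted p = 0.000591), the 5th smallest p.

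Both calls stood near the 2-fold limit and leaned on mouse 1069. Without that mouse the log2 fold change was 0.80 in depleted (DESeq2 adjusted p = 3.69e-06) and 0.82 in undepleted libraries (adjusted p = 0.000932), below the limit of 1. Without only its serum from before injection, an alternative chosen after seeing the data, the values were 0.99 (adjusted p = 2.70e-06) and 0.92 (adjusted p = 9.75e-06). Without mouse 1047 the undepleted value was 1.26 with an adjusted p of 0.266 from DESeq2.

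**Figure D1:**
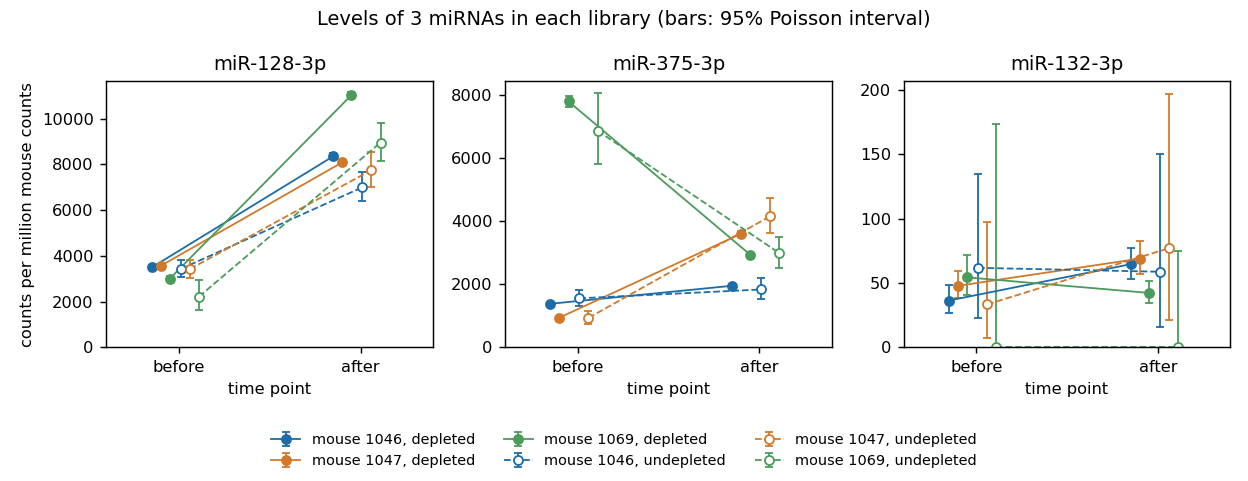
Level of miR-128-3p, miR-375-3p and miR-132-3p in CPM of the mouse table (vertical axes, each starting at 0) before and after injection, with 1 line per mouse, filled points for depleted and open points for undepleted libraries, and bars for the exact 95% Poisson interval of the count. All lines of miR-128-3p go up, whereas mouse 1069 runs against mice 1046 and 1047 for miR-375-3p, and the undepleted values of miR-132-3p rest on 0 to 6 counts.

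The human-table row of miR-128-3p held exactly the same count as the mouse-table row in 12 of 12 libraries, a difference of 0 counts in each. Only the totals around it differed. Human totals were 1.62 to 2.12 times the mouse totals before injection and 1.40 to 1.58 times after it, and the most abundant human row held 39.8% to 54.2% of human counts before and 31.5% to 39.2% after. With the same counts, the mean CPM ratio after to before was thus 3.59 in depleted and 3.27 in undepleted human tables, without overlap of the groups, as for 25.7% of 459 and 15.6% of 295 human miRNAs. Median-of-ratios scaling brought the ratios to 2.37 and 2.44. The human-table row was called as higher in depleted libraries (DESeq2 log2 fold change 1.14, SE 0.27, adjusted p = 0.000958), where 7.12% of 323 human miRNAs were called (5.26% as higher). It was called in undepleted libraries too (1.17, SE 0.26, adjusted p = 0.000157), against 10.1% of 89 (6.74% as higher). Because the counts are the same reads, the human-table row adds no evidence to the mouse-table row. Each of the other 5 mouse rows also had exactly 1 human-table row with identical counts in 12 of 12 libraries, found by its counts and not by name.

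miR-375-3p, a regulator of insulin secretion in islets, was counted 1861, 1712 and 7327 times before and 3476, 6273 and 6680 times after injection in the depleted aliquots of mice 1046, 1047 and 1069. Its level went from 1380 to 1951 CPM in mouse 1046, from 940 to 3602 CPM in mouse 1047 and from 7805 to 2941 CPM in mouse 1069. Mice 1046 and 1047 thus went one way (ratios of 1.41 and 3.83) and mouse 1069 the other (0.377), and the groups overlapped. The undepleted aliquots gave the same pattern in each mouse, with 151, 84 and 146 counts before and 125, 216 and 148 counts after, and CPM ratios of 1.18, 4.45 and 0.435. The high level of mouse 1069 before injection was therefore present in both aliquots of that serum, at 7805 and 6875 CPM. The DESeq2 log2 fold change was -0.22 (SE 0.52, adjusted p = 0.822) in depleted and -0.01 (SE 0.50, adjusted p = 0.989) in undepleted libraries. Without mouse 1069 the log2 fold change was 0.69 (adjusted p = 0.165) in depleted and 0.87 (adjusted p = 0.0364) in undepleted libraries. With only that 1 serum left out, chosen after its values were seen, the log2 fold change was 0.89 (adjusted p = 0.000599) in depleted and 0.92 (adjusted p = 0.00892) in undepleted libraries, all under 2-fold and so not called.

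miR-132-3p, a miRNA of neuronal activity and plasticity, was found in the depleted aliquots with counts of 49, 87 and 51 before and of 115, 120 and 96 after injection. The levels were 36.3, 47.8 and 54.3 CPM before and 64.6, 68.9 and 42.3 CPM after, so the groups overlapped through mouse 1069. The DESeq2 log2 fold change was 0.06 (SE 0.34, adjusted p = 0.931), with a 95% interval of -0.61 to 0.73. Undepleted libraries held 6, 3 and 0 counts before and 4, 4 and 0 after, too few for an adjusted p, and a change was not detectable at this depth.

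The 3 strands most specific to neural cells were the rarest. miR-124-3p was counted 1, 0 and 6 times before and 26, 22 and 8 times after injection in the depleted libraries of mice 1046, 1047 and 1069. miR-9-5p was counted 0, 1 and 47 times before and 40, 33 and 11 times after. miR-9-3p was counted 1, 0 and 7 times before and 14, 7 and 3 times after. In mice 1046 and 1047 all 3 were thus almost absent before injection and present after it, whereas in mouse 1069 the highest levels of the 2 miR-9 strands in that animal came before injection, in CPM. Summed over the 3 strands, the level went from 1.48 to 44.9 CPM in mouse 1046 and from 0.549 to 35.6 CPM in mouse 1047, but from 63.9 to 9.69 CPM in mouse 1069. The undepleted libraries held 0 to 2 counts of each strand, below the limit that a count of 0 allows.

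With such counts a ratio carries a wide interval. For miR-124-3p the CPM ratio of mouse 1046 was 19.7 (exact 95% interval 3.23 to 807), and mouse 1047, with 0 counts before, was 7.67-fold higher after injection with 3 counts taken for the 0 (exact 95% lower limit of the ratio 5.73). In mouse 1069 the ratio was 0.551 (0.168 to 1.93), an interval that holds 1. For miR-9-5p mouse 1046 was 10.1-fold higher after injection with 3 counts taken for the 0 (lower limit 7.84), mouse 1047 had a ratio of 34.5 (5.78 to 1404) and mouse 1069 a ratio of 0.0967 (0.0452 to 0.189). For miR-9-3p the ratios were 10.6 (1.61 to 448) in mouse 1046 and 0.177 (0.0296 to 0.776) in mouse 1069, and mouse 1047 was 2.44-fold higher with 3 counts taken for the 0 (lower limit 1.51). These intervals cover the counting of reads in 1 library against 1 other, and not the variation between mice. Over the 3 mice, DESeq2 gave a log2 fold change of 0.96 for miR-124-3p (SE 0.53, unadjusted p = 0.0678), with no adjusted p because its mean count fell under the independent filter. Without shrinkage it was 2.10 (SE 1.13, DESeq2 adjusted p = 0.209), and edgeR gave 2.20 (unadjusted p = 0.00998, adjusted p = 0.126). For miR-9-5p it was -0.04 (SE 0.43, adjusted p = 0.963), and for miR-9-3p 0.24 (SE 0.51, no adjusted p). The value of miR-9-5p turned with mouse 1069, since it was 1.72 without that mouse (DESeq2 unadjusted p = 0.000189) and 1.78 without its serum from before injection (unadjusted p = 0.000322), with no adjusted p in either fit. That serum was chosen after its values were seen. In these 2 fits 90 of 796 and 112 of 832 mouse miRNAs had an unadjusted p under 0.05. The p of miR-9-5p ranked 35th and 45th among them.

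**Figure D2:**
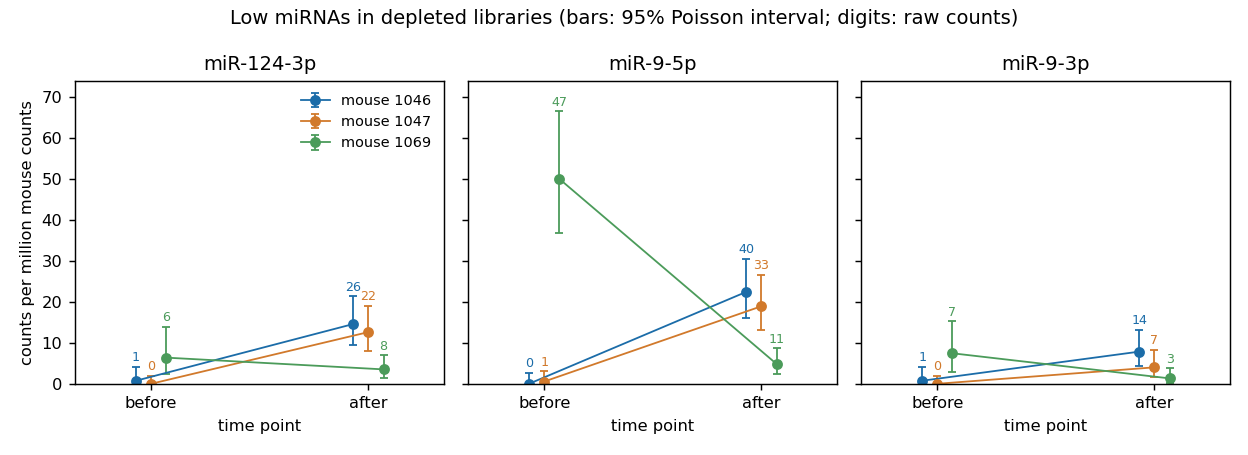
Level of miR-124-3p, miR-9-5p and miR-9-3p in CPM of the mouse table (vertical axis, from 0) in depleted libraries before and after injection, with 1 line per mouse, the raw count at each point and bars for the exact 95% Poisson interval. Mice 1046 and 1047 start at 0 or 1 count and end higher, whereas mouse 1069 falls from 47 to 11 counts of miR-9-5p.

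The direction of change in CPM differed between the mice for 5 of the 6 miRNAs, though not always beyond counting error. In depleted libraries 6 of 6 were higher after injection in both mouse 1046 and mouse 1047, which held for 33.3% of the 861 mouse miRNAs. The 6 are not independent, since miR-9-5p and miR-9-3p come from the same hairpins. Some of these rises were small after median-of-ratios scaling. The normalised count went from 95.8 to 99.3 for miR-132-3p in mouse 1047 and from 2489 to 2790 for miR-375-3p in mouse 1046. The combination of higher in that pair of mice and lower in mouse 1069 was found for 5 of 6, all but miR-128-3p, and for 13.2% of the 861. In mouse 1069 the interval of the miR-124-3p ratio held 1 (0.168 to 1.93). The Poisson intervals of miR-132-3p in that mouse overlapped, at 40.5 to 71.4 CPM before and 34.2 to 51.6 CPM after injection. The serum of mouse 1069 before injection stood apart for 4 of the 6. Its depleted CPM was 5.66 times the higher of the other mice for miR-375-3p, 8.62 times for miR-124-3p, 10.1 times for miR-9-3p and 91.2 times for miR-9-5p, but 0.843 times for miR-128-3p and 1.14 times for miR-132-3p. For miR-124-3p, miR-9-3p and miR-9-5p the higher of the other mice held 1 count, against 6, 7 and 47 counts in mouse 1069. The size of these ratios is therefore poorly known. Among the 381 mouse miRNAs with at least 4 counts in that library, 9.45% were at least 4-fold above both other mice, limits that were set after seeing these values. That library also had the smallest total of the depleted ones, and the part of depth in these values was not tested.

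**Figure D3:**
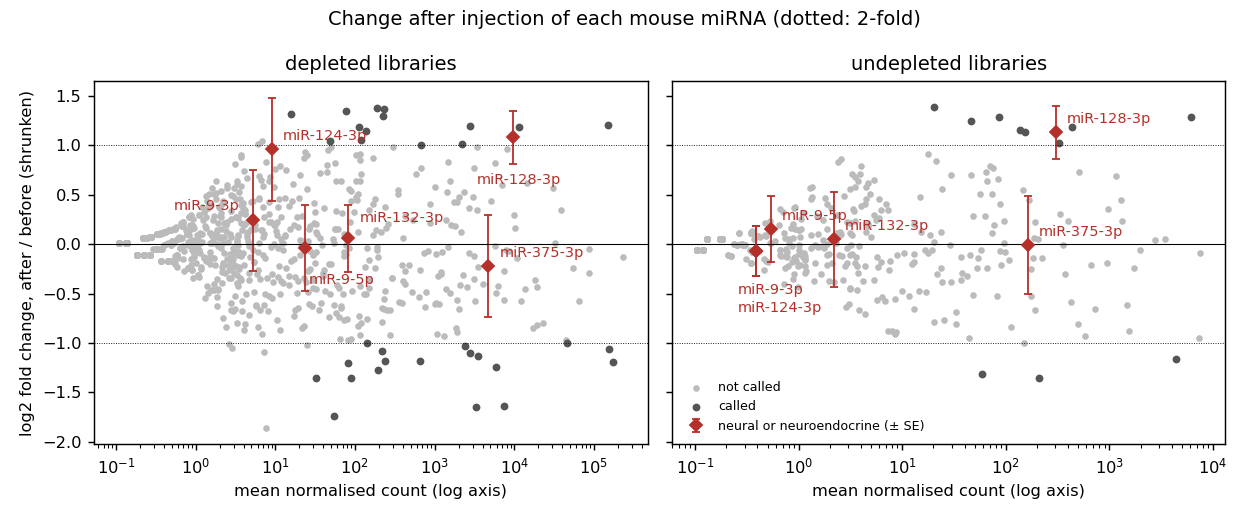
DESeq2 log2 fold change after against before injection (vertical axis) by mean normalised count (horizontal log axis) for every mouse miRNA, in depleted and undepleted libraries. Diamonds with SE bars are the 6 neural and neuroendocrine miRNAs, dark points are called miRNAs and dotted lines mark 2-fold. miR-128-3p lies above 2-fold in both panels, at 1.08 and 1.13, and the other 5 lie between -0.22 and 0.96.

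Both strands of the miR-9 hairpin were compared, because they are cut from the same precursor. Over the 6 depleted libraries the pair had 164 counts, of which 32 were miR-9-3p, a share of 19.5% (exact binomial 95% interval 13.7% to 26.4%). In the 4 libraries with more than 1 count of the pair, the share was 13.0%, 25.9%, 17.5% and 21.4%, with intervals that overlap. The mean share was 37.7% before and 21.6% after injection, but the mean before rests on 2 libraries with a single count of the pair, at 100% and 0%, so the time points could not be compared.

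Then, the depleted and undepleted aliquots of each serum were compared, which asks whether the removal of tRNA fragments changes the measured levels of these miRNAs. The low miRNAs had more counts in depleted libraries, but the relative level of none of the 6 differed past the threshold. Counts of miR-128-3p over all mice went from 688 to 14020 before injection and from 1323 to 54058 after it, and counts of miR-9-5p from 1 to 48 and from 3 to 84. The part of sequencing depth in these counts was not tested. After normalisation 0 of the 6 were called by DESeq2 or by edgeR, and 0 had an unadjusted p under 0.05 in either tool, where DESeq2 called 8.36% of 383 mouse miRNAs. miR-128-3p had a log2 difference of 0.05, depleted against undepleted (SE 0.19, DESeq2 adjusted p = 0.918, 95% interval -0.32 to 0.42), and its human-table row one of 0.08 (SE 0.18, adjusted p = 0.850), where 5.56% of 414 were called. For miR-375-3p the difference was -0.09 (SE 0.45, adjusted p = 0.927, interval -0.97 to 0.78). The 4 low miRNAs gave 0.06 (miR-132-3p), 0.09 (miR-124-3p), 0.20 (miR-9-5p) and -0.37 (miR-9-3p), with SEs of 0.40 to 0.87, and the intervals of the last 3 reached past 2-fold in both directions. TMM scaling moved the median of the mouse miRNAs with a mean normalised count of 50 or more from -0.01 to 0.26 in this comparison, and miR-375-3p was at 0.20 under it. The aliquots of a serum are not independent, and with the serum as a block the SE was smaller, with a difference of 0.045 (SE 0.065, DESeq2 adjusted p = 0.830) for miR-128-3p and -0.14 (SE 0.081, adjusted p = 0.330) for miR-375-3p. Neither was called.

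Per serum, the depleted CPM of miR-128-3p was 1.02 to 1.36 times the undepleted CPM, higher in 6 of 6 sera (mean log2 ratio 0.19 ± 0.17, SD, n = 6, exact two-sided sign-flip permutation p = 0.031, the smallest that 6 sera can give). The 6 sera come from 3 mice and were treated as separate units, and the largest ratios were those of both sera of mouse 1069, at 0.44 and 0.30 on the log2 scale. This was 1 of 3 such tests in CPM, and its Benjamini-Hochberg adjusted p over the 3 exact permutation tests was 0.094, above 0.05. The excess depended on the scaling, since with median-of-ratios counts it was 0.08 ± 0.17, higher in 4 of 6 sera (exact sign-flip permutation p = 0.34375). miR-375-3p gave -0.02 ± 0.15 in CPM (higher in 3 of 6 sera, exact sign-flip permutation p = 0.75), and the human-table row of miR-128-3p gave 0.12 ± 0.16 (higher in 5 of 6 sera, exact sign-flip permutation p = 0.15625). miR-16-5p, a large part of the total, was lower in depleted aliquots (log2 difference -0.56, SE 0.16, DESeq2 adjusted p = 0.00525, under 2-fold), and its part in the CPM ratios was not tested.

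**Figure D4:**
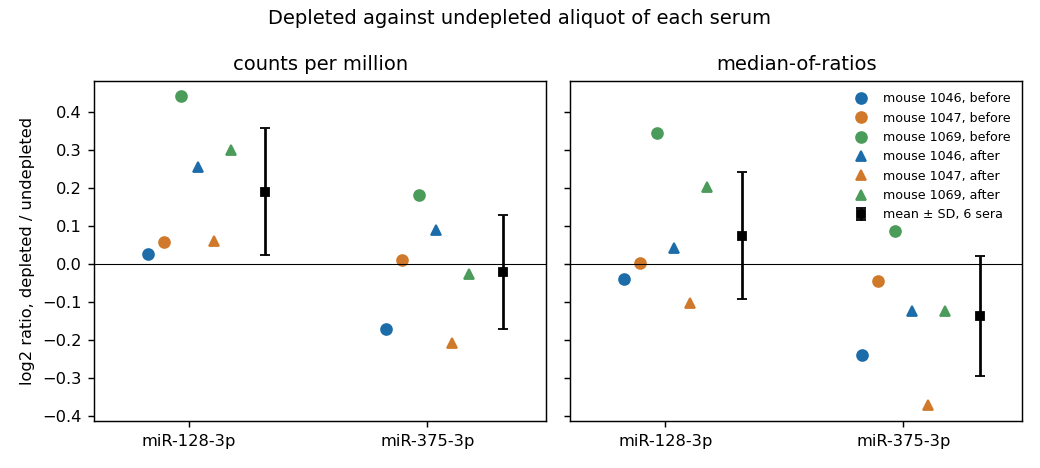
Log2 ratio of the depleted to the undepleted aliquot of each of the 6 sera (vertical axis) for miR-128-3p and miR-375-3p, in CPM and in median-of-ratios normalised counts, with circles before and triangles after injection, 1 colour per mouse and black squares for mean ± SD. All points of miR-128-3p lie above 0 in CPM, at a mean of 0.19, but 4 of 6 do so after median-of-ratios scaling.

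Finally, it was tested whether the change after injection differed between depleted and undepleted libraries, with the interaction of time point and depletion. No mouse miRNA was called (0.0% of 874 by DESeq2, with 3 at an unadjusted p under 0.05, and 0 by edgeR, with 11). For miR-128-3p the change was 0.03 larger on the log2 scale in depleted libraries (SE 0.40, DESeq2 adjusted p = 0.998, 95% interval -0.77 to 0.82), and its human-table row gave 0.02 (SE 0.39, 0.0% of 463 called, with 2 at an unadjusted p under 0.05 and 0 by edgeR, with 6). For miR-375-3p the difference was -0.26 (SE 0.99, interval -2.19 to 1.67). With the serum as a block, the values were 0.00049 (SE 0.143) for miR-128-3p and -0.15 (SE 0.167) for miR-375-3p, with a DESeq2 adjusted p of 0.999 for both.

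The miRNAs whose levels followed these most closely were sought over the 6 depleted libraries, by the smallest root mean square difference of centred log2 normalised counts. This is a description over 6 libraries of the same 3 mice. Among mouse miRNAs with a mean of at least 50, those nearest to miR-128-3p were MIMAT0000141 (0.0925) and MIMAT0000565 (0.0968), where the median miRNA differed by 0.738. For miR-375-3p the nearest, MIMAT0000162, differed by 0.378 (median 0.980), and for miR-132-3p the nearest, MIMAT0000121, by 0.181 (median 0.495). The accessions are given without names because the tables do not pair them.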

How the data were processed

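Serum small RNA of 3 mice was analysed in 12 libraries, grouped by time point and depletion from the labels. The authors trimmed adaptors with Cutadapt 1.8.1, mapped reads with Bowtie 1.1.2 and assigned them to miRBase miRNAs of mouse (GRCm38) and human, per the study's methods. The deposited values are raw read counts per mature miRNA, in 1 mouse and 1 human table per library. How reads with several matches were counted is not given in the sources used here. Both tables can count the same read.

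Rows that are absent from a table were set to 0. DESeq2 1.42.0 in R 4.3.3 (Wald test with the fold change prior, median-of-ratios size factors, Benjamini-Hochberg adjustment over the whole table, independent filtering) was fitted separately to each table and kind of library, with time point as the term, and a call needed an adjusted p under 0.05 and 2-fold. The depletion and interaction fits used all 12 libraries. edgeR 4.0.16 (quasi-likelihood), TMM scaling, a low-count filter, no prior, no fold limit, a block for mouse or serum and leaving out each mouse were alternatives. Scripts were tested on simulated data. Except where a block was fitted, the fits of time point treated both sera of a mouse as independent. The depletion and interaction fits treated the 12 libraries so. Their p-values measure the spread between libraries of these 3 mice, and not between independent animals.

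The 2 sera of a number come from 1 animal per the labels. Deviations from the group means correlated between them at -0.42, 0.10 and -0.14 in depleted and at -0.27, -0.24 and -0.14 in undepleted libraries. Between the 2 aliquots of a serum they correlated at 0.43 to 0.62.

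All 7 rows were named in every comparison, and the 2 nearest rows by profile were sought for those whose mean normalised count reached 50. The members and lists were chosen with earlier results of these data known. Other neural miRNAs and cell markers listed by name, apart from miR-16-5p, whose accession the study gives, were not analysed here, because no table used here pairs their names with accessions.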

Additional observations from a re-analysis of the deposited data

How the results depend on the processing

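Of 321 values under alternatives, 260 were scored as the same, 39 changed sign and 22 lost the threshold. For log2 differences, the same meant an equal direction and side of the threshold. For numbers of calls it meant no change, and for level ratios a CPM ratio within the spread of the mice. For the miR-9-3p share only the sign was scored. The alternative without a fold limit reused the main fit, so its log2 fold changes could not move. These values are not independent. Of the 22 losses, 9 were log2 fold changes of miR-128-3p. Each of them was scored again in the number of miRNAs called in the same fit. The exact permutation test of the CPM excess of miR-128-3p could not reach the threshold without 1 mouse. Its loss there was fixed in advance and does not measure robustness. The number of neural and neuroendocrine miRNAs called after injection was 1 of 6 in each mouse-table fit. It was 1 of 1 in each human-table fit, where only miR-128-3p, counted from the same reads, was followed. This number ranged from 0 to 1 when 1 mouse was left out, in both tables and both kinds of library. It became 0 without mouse 1069 in all 4 fits and without mouse 1047 in the undepleted ones. Without the serum of mouse 1069 from before injection it was 0 in the depleted and undepleted mouse tables and in the undepleted human table, and 1 in the depleted human table. Over all alternatives miR-128-3p stayed between 0.80 and 1.28 in depleted and 0.82 and 1.28 in undepleted mouse tables.

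Changes of sign concerned log2 differences whose reported interval or spread holds 0, and the miR-9-3p share. Blocking on mouse gave 0.030 for miR-9-5p in depleted and 0.15 for miR-375-3p in undepleted libraries, and changed no call. The blocked miR-128-3p values were 1.07 and 1.14. With edgeR, the change after injection was 0.012 for miR-9-5p in depleted libraries, and -0.083 for miR-132-3p and 0.11 for miR-375-3p in undepleted ones (0.068 with TMM in DESeq2). Leaving out 1 mouse gave, in depleted libraries, -0.29 to 1.72 for miR-9-5p, -0.13 to 0.58 for miR-9-3p, -0.10 to 0.21 for miR-132-3p and -0.74 to 0.69 for miR-375-3p, and in undepleted ones -0.073 to 0.13 for miR-132-3p and -0.48 to 0.87 for miR-375-3p. Without the 1 serum, miR-9-5p was at 1.78 and miR-375-3p at 0.89 in depleted libraries, and miR-132-3p at -0.089 and miR-375-3p at 0.92 in undepleted ones.

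For depletion, edgeR gave 0.24 for miR-9-3p and 0.23 for miR-375-3p (0.20 with TMM), the fit without prior -0.013 for miR-124-3p, and the serum block -0.0030 for miR-9-5p. Leaving out 1 mouse gave -0.61 to 0.00076 for miR-9-3p, -0.22 to 0.019 for miR-375-3p, -0.22 to 0.35 for miR-124-3p, -0.70 to 0.63 for miR-9-5p, -0.026 to 0.14 for miR-128-3p and -0.20 to 0.48 for miR-132-3p. For the interaction, edgeR gave -0.088 for miR-128-3p and -0.0078 for its human-table row, and the serum block 1.31 for miR-9-5p and -0.0056 for the human-table row. Leaving out 1 mouse gave -0.078 to 0.090 for miR-128-3p, -0.53 to 0.73 for miR-132-3p, -2.20 to 3.75 for miR-9-5p and -0.10 to 0.10 for the human-table row. The CPM excess of miR-128-3p in depleted aliquots was 0.076 with median-of-ratios and 0.10 to 0.26 without 1 mouse, where the smallest possible exact permutation p is 0.125, and that of miR-375-3p was -0.069 to 0.019 without 1 mouse. The miR-9-3p share differed by -32.8 to 13.0 points after injection without 1 mouse. The cause of these shifts was not tested. In undepleted libraries the 3 rarest miRNAs had 0 to 2 counts each, under the limit of 3 that a count of 0 allows.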
